A study of Mus musculus with 6 samples.

Results

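Cartilage transcription factors and non-collagen cartilage matrix genes were examined in primary mouse osteosarcomas, to see which tumors hold cartilage transcripts and whether these differ with the *Cd44* genotype. The group holds 10 of the 39179 genes of the count table, picked by symbol and not by their values. They are *Sox9*, *Sox5*, *Sox6*, *Ihh*, *Acan*, *Hapln1*, *Matn1*, *Matn3*, *Comp* and *Chad*. mRNA of 6 tumors was sequenced. Of these, 3 were *Cd44*+/+ (No244, No316 and No368) and 3 were *Cd44*-/- (No203, No279 and No364). Mice of both genotypes carried the Nf2Δ2/+ mutation, a defect in 1 copy of the tumor suppressor gene *Nf2*, on a mixed C57BL/6 x 129/Sv x FVB background. Tumors arose in the animals, so each library mixes tumor cells with whatever host tissue was taken along. The labels name osteosarcoma as the tissue, although their extraction note speaks of cell lines. Age and sex were not given in the sources used here.

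Chondrocytes are set up by SOX9, which acts with SOX5 and SOX6 to turn on the genes of the cartilage matrix. The matrix they build holds aggrecan bound to hyaluronan, with link protein securing the bond, and type II collagen fibrils bridged by matrilins, COMP and chondroadherin. Prehypertrophic chondrocytes of the growth plate secrete Indian hedgehog, which sets the pace of cartilage growth together with PTHrP. Osteosarcomas are defined by bone matrix, and some, called chondroblastic, also make cartilage. CD44 is a surface receptor for hyaluronan, the polymer that aggrecan and link protein bind.

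Values are CPM, counts scaled to the size of the library, after TMM correction for differences in library composition. Total counts lay between 18076388 and 26954142 per tumor, and the floor of 3 counts was from 0.0990 to 0.252 CPM. Genes of the mitochondrial genome made up 55.2% of No244 and between 5.94% and 12.5% of the other libraries. The counts of No316 and No368 lay within sampling noise of each other for 87.2% of genes, against 15.7% to 24.1% in the other pairs, so these tumors were averaged and counted as 1 sample in means and SDs. In fold changes, SEs, confidence intervals and p-values they count as separate tumors unless said to be summed. The targeted gene, *Cd44*, was at 137 CPM or above in every *Cd44*+/+ tumor and at 61.8 CPM or below in every *Cd44*-/- tumor. The osteoblast markers went against the tissue label in 2 *Cd44*-/- tumors. *Sp7*, the osteoblast factor osterix, was at 3.96 CPM in No279 and 0.314 in No364 but between 192 and 333 in the other 4 tumors. *Dmp1*, an osteocyte matrix gene, stood at 0.363 and 0.523 CPM in these and between 147 and 229 elsewhere. *Col1a1*, the collagen of bone and of many other mesenchymal cells, remained at 12000 CPM in No279 and 765 CPM in No364. The 8 hepatocyte markers summed to 131000 CPM in No364 and to between 76.1 and 180 in the other tumors. The 6 skeletal muscle markers summed to 17500 CPM in No244 and to at most 580 in the others. In such bulk samples, fewer cells of a type and less RNA per cell cannot be told apart.

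No cartilage gene was called between the genotypes by edgeR after adjustment. The targeted gene *Cd44* was not called either (edgeR log2 fold change -2.68, unadjusted p 0.00494, adjusted p 0.452), while DESeq2 gave it an adjusted p of 0.0145. The lack of an edgeR call is therefore no evidence that a gene was equal between the genotypes. Of the 10 genes, 7 had enough counts to be tested (*Sox5*, *Matn1* and *Chad* did not), and 0 of them had an adjusted p under 0.05, where 0 of 16839 genes tested did (0%). At an unadjusted p under 0.05 there were 2 of 7, *Acan* higher and *Hapln1* lower in *Cd44*-/- tumors, against 1810 of all genes (10.7%; 6.44% higher and 4.31% lower). With No316 and No368 summed as 1 sample, edgeR gave 3 of 8 (*Sox5* could then be tested) against 761 of 17844 genes (4.26%). *Acan* was also the 1 gene of the 7 for which every *Cd44*-/- tumor lay above every *Cd44*+/+ tumor, which 9.49% of all genes did. For 0 of the 7 did every *Cd44*-/- tumor lie below, which 9.57% of all genes did. DESeq2 called 2, *Sox5* higher and *Hapln1* lower, and gave no p for *Acan*, while it called 419 of the 17952 genes with an adjusted p (2.33%). The median log2 fold change of the 7 genes was 0.71, between -7.46 and 6.11, and that of all genes tested was 0.11.

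**Figure D1:**
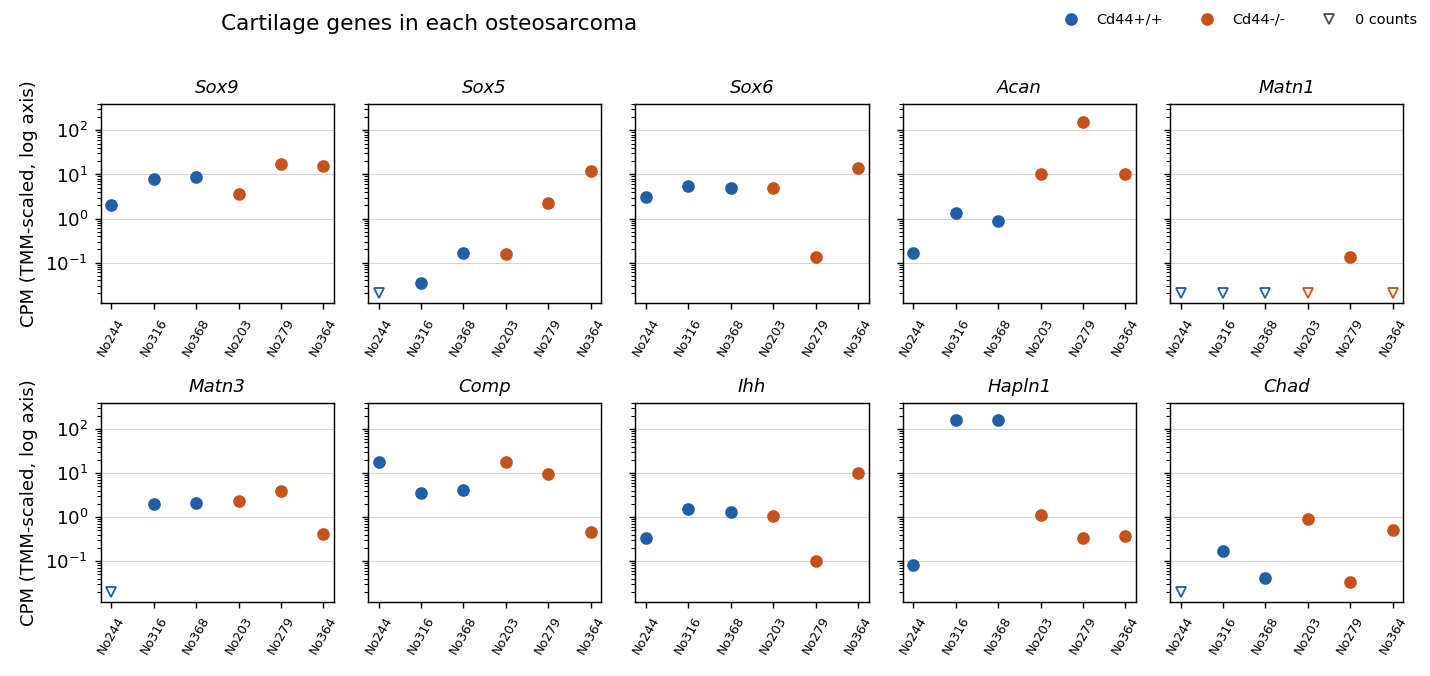
Level of each cartilage gene in each tumor, in TMM-scaled CPM on a log axis; blue points are Cd44+/+, orange points Cd44-/- and open triangles 0 counts. Acan is the panel in which every orange point lies above every blue one, and Hapln1 the panel in which No316 and No368 stand at 161 and 160 with all others at or below 1.11.

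The tumor with the highest level changed from gene to gene. The highest level fell in No279 for 4 genes (*Sox9*, *Acan*, *Matn1* and *Matn3*), in No364 for 3 (*Sox5*, *Sox6* and *Ihh*), in No203 for 2 (*Comp* and *Chad*) and in No316 for 1 (*Hapln1*). In No244 none was highest, and 4 of the 10 genes had more than 3 counts there, against 8 or 9 in each other tumor. That cutoff was 0.252 CPM in No244 and from 0.0990 to 0.157 CPM elsewhere, so detection was not compared at an equal level. On the log2 scale *Hapln1* spanned 9.88 and *Acan* 9.23 over the 6 tumors, more than 99.2% and 98.9% of all genes tested. *Sox6*, *Ihh*, *Matn3* and *Comp* spanned between 5.03 and 5.98, and *Sox9* 3.08, where the median gene spanned 2.07.

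*Sox9* (chr11:112782224-112787760, plus strand, GRCm38), the master factor of the chondrocyte, was detected in all 6 tumors. Its CPM came to 2.02 in No244, 7.72 in No316 and 8.98 in No368, against 3.65 in No203, 17.7 in No279 and 15.6 in No364. Highest were No279 and No364, the tumors low in *Sp7*, while No203 lay among the *Cd44*+/+ tumors, so the genotypes overlapped. The means were 5.18 ± 4.48 CPM (SD, n = 2) in *Cd44*+/+ and 12.3 ± 7.59 CPM (SD, n = 3) in *Cd44*-/- tumors. The log2 fold change of *Cd44*-/- against *Cd44*+/+ was 0.98 ± 0.79 (SE), with a 95% confidence interval from -0.91 to 2.87 and an edgeR adjusted p of 0.646. With both No279 and No364 left out it was -0.78, which sets No203 alone against the *Cd44*+/+ tumors. Bile duct cells also express *Sox9*. Of the bile duct markers, *Krt19*, a duct keratin, was at 2.04 CPM in No364, at 0.0793 CPM in No203 and at 0 in the other 4 tumors, and *Epcam*, an epithelial adhesion gene, was at 7.54 CPM in No364, at 1.68 in No279 and at most 2.5 CPM in the others. The part of these cells in the *Sox9* level of No364 was not tested.

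*Sox5* (chr6:143828425-144781977, minus strand), a partner of SOX9 without a transactivation domain of its own, was nearly confined to the 2 tumors with the most *Sox9*. It had 0, 1 and 4 counts in No244, No316 and No368, and 4, 69 and 224 counts in No203, No279 and No364. In CPM, No279 held 2.28 and No364 held 11.7, and No203 with 0.159 did not exceed No368 with 0.168. edgeR left *Sox5* out as too low. DESeq2 gave a log2 fold change of 6.00 with an adjusted p of 0.0145, which was 0.00561 with its outlier filter off, 0.0132 without No279, 0.0662 with No316 and No368 summed and 0.236 (4.07) without No364. With no low-count filter, edgeR gave 5.84 with an unadjusted p of 0.0122 and an adjusted p of 0.495. The gene overlaps 7 annotated RNAs, 5 of them on the opposite strand, and as the strand setting of the counting is not given in the sources used here, its counts are uncertain.

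*Sox6* (chr7:115470872-116038796, minus strand), the close relative of *Sox5* with which it acts in cartilage, did not follow the same tumors. Its CPM came to 3.02 in No244, 5.42 in No316 and 5.0 in No368, against 5.04 in No203, 0.132 in No279 and 13.7 in No364. No279, highest in *Sox9* and *Acan*, was lowest in *Sox6*, and No364 exceeded it 104-fold. The log2 fold change was 0.48 ± 1.24 (SE), with an edgeR adjusted p of 0.898, and was -0.80 without No364. *Sox6* is also known from erythroid and muscle cells. The 4 erythroid markers summed to 3500 CPM in No244, 974 in No364, 34.1 in No279 and between 102 and 194 in the other tumors. Most of each sum was *Hbb-bs*, a hemoglobin gene, while *Alas2* and *Klf1*, of the red cell precursors, were highest in No364 with 57 and 1.05 CPM, against 52.9 and 0.0840 CPM in No244. Whether such cells contributed to the *Sox6* level of No364 was not tested. *Sox6* overlaps 2 RNAs of the opposite strand. Of the other SOX genes examined, *Sox13* lay between 5.35 and 13 CPM, and *Sox8* was at most 2.94 CPM.

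*Ihh* (chr1:74945315-74951672, minus strand), the hedgehog ligand of the growth plate, was high in No364 alone. Its CPM came to 0.336 in No244, 1.53 in No316 and 1.30 in No368, against 1.07 in No203, 0.0990 in No279 and 10.1 in No364. No364 exceeded the next tumor, No316, 6.60-fold, and No279 stood at the floor of 3 counts. The log2 fold change was 1.8 ± 1.46 (SE), with an edgeR adjusted p of 0.645, and was -0.87 without No364. The hepatocyte marker sum of 131000 CPM in the same tumor is given beside this value, and its part in the *Ihh* level was not tested.

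The genes that hedgehog signaling induces did not have their highest level in the tumor with the most *Ihh*. *Gli1*, whose transcription follows pathway activity, had a CPM of 4.96 in No244, 20.6 in No316 and 22.3 in No368, against 9.16 in No203, 1.42 in No279 and 0.628 in No364, and was thus lowest where *Ihh* was highest. *Ptch1*, the main hedgehog receptor, had no count in No244, 9.91 CPM in No316 and 9.99 CPM in No368, against 0.793, 3.76 and 2.77 CPM in No203, No279 and No364. *Hhip*, a decoy receptor, was highest in No279 with 4.26 CPM and had 0.523 CPM in No364. *Pth1r*, the receptor of PTHrP, ranged from 197 to 645 CPM in the *Cd44*+/+ tumors and had 387, 11.9 and 5.44 CPM in No203, No279 and No364. *Pth1r* is expressed by osteoblasts as well, and its low levels were in the 2 tumors low in *Sp7* and *Dmp1*. *Pthlh*, which encodes PTHrP itself, was at 3.96 CPM in No279 and at most 0.357 CPM elsewhere. *Smo*, the signal transducer, lay between 26.7 and 91.3 CPM. Of the 9 genes of the hedgehog and PTHrP axis, 7 were tested by edgeR, and 0 passed the adjusted threshold.

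*Acan* (chr7:79053483-79115099, plus strand), which encodes aggrecan, the large proteoglycan that gives cartilage its stiffness, was higher in each *Cd44*-/- tumor than in any *Cd44*+/+ tumor. Its CPM came to 0.168 in No244, 1.36 in No316 and 0.882 in No368, against 10.1 in No203, 153 in No279 and 10.3 in No364. Behind these lay counts of 2, 39 and 21 against 254, 4631 and 197. No203 and No364 exceeded the highest *Cd44*+/+ tumor 7.43-fold and 7.61-fold, and No279 stood a further 15.2-fold above No203. The means were 0.643 ± 0.672 CPM (SD, n = 2) and 57.8 ± 82.4 CPM (SD, n = 3). The log2 fold change was 6.11 ± 1.48 (SE), with a 95% confidence interval from 2.59 to 9.64, an unadjusted p of 0.00480 and an edgeR adjusted p of 0.452. With No316 and No368 summed the unadjusted p was 0.0151 and the adjusted p 0.818. Without No279 the log2 fold change was 3.62, with an unadjusted p of 0.00785 and an edgeR adjusted p of 0.433. DESeq2 gave no p with its default outlier filter, an adjusted p of 0.000141 with that filter off, 0.00491 with No316 and No368 summed and 0.00277 without No279, so the call depends on the tool. Over all 19 alternatives the log2 fold change stayed above 0, between 3.60 and 6.69, and the adjusted p lay between 1.40e-05 and 0.818. Per kb of exons, *Acan* ranked above 85.6% of tested genes in No279, above 27.7% and 28.7% in No203 and No364, and above at most 6.07% in the *Cd44*+/+ tumors.

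*Hapln1* (chr13:89539796-89611652, plus strand), which encodes link protein, the clasp between aggrecan and hyaluronan, was high in other tumors than *Acan*. It had a CPM of 0.0840 in No244, 161 in No316 and 160 in No368, against 1.11 in No203, 0.330 in No279 and 0.366 in No364. Its counts were 1, 4626 and 3823 against 28, 10 and 7. No316 and No368, the pair with nearly proportional counts, stood 145-fold above the next tumor, while No244 of the same genotype was the lowest of all, so the genotypes overlapped. The means were 80.4 ± 114 CPM (SD, n = 2) and 0.602 ± 0.440 CPM (SD, n = 3), with a spread larger than the mean in *Cd44*+/+ tumors. The log2 fold change was -7.46 ± 2.13 (SE), with a 95% confidence interval from -12.55 to -2.37, an unadjusted p of 0.0108 and an edgeR adjusted p of 0.452. DESeq2 called *Hapln1* with an adjusted p of 0.000819, and still did with No316 and No368 summed (adjusted p of 0.0250). With that pair summed, edgeR gave -7.08 with an unadjusted p of 0.0196 and an adjusted p of 0.818. limma-voom gave -5.81 with an unadjusted p of 0.173. *Hapln1* overlaps *Gm8546* on the opposite strand.

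The aggrecan and link protein transcripts, whose products are parts of the same aggregate, were thus high in different tumors. Per kb of exons, *Acan* was 366 times *Hapln1* in No279, 22.2 times in No364 and 7.17 times in No203. In No316 and No368 the ratio was 0.00666 and 0.00434, and in No244, where both were at or below the floor of 3 counts, it is not interpreted. No tumor held both genes above 2 CPM. *Hapln3*, another link protein gene, was at 5.83 CPM in No203 and at most 0.462 CPM in the others.

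**Figure D2:**
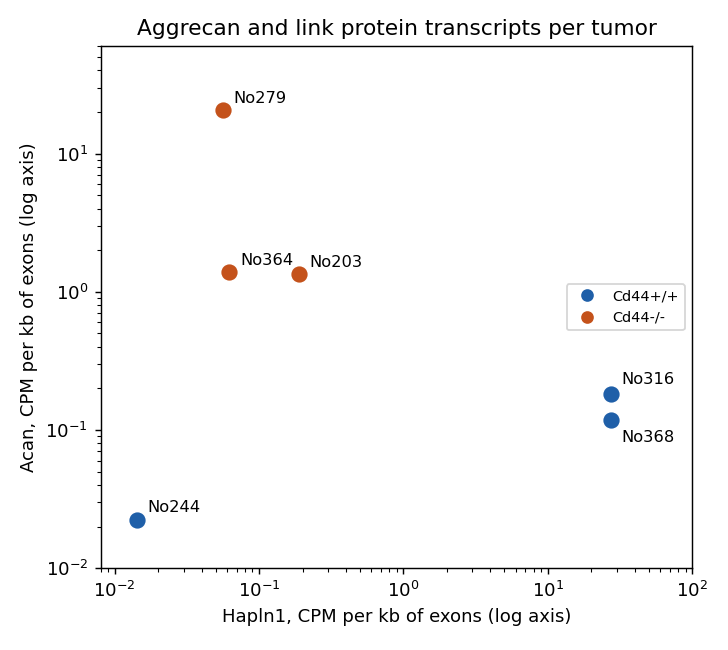
Acan against Hapln1 in each tumor, both in CPM per kb of exons on log axes, with blue points for Cd44+/+ and orange for Cd44-/- tumors. No279 sits at the top left with 20.5 for Acan and 0.0559 for Hapln1, No316 and No368 at the right with 27.2 for Hapln1, and no tumor at the top right.

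The promoter sequences of these genes, which were high in different tumors, are shown for comparison, as the 250 bases before the RefSeq start on GRCm38.p6, 5′ to 3′ on the coding strand. The *Acan* window lies at chr7:79052976-79053225 on the plus strand and the *Hapln1* window at chr13:89540386-89540635 on the plus strand. Capitals mark CCTGCG, the core letters of the response element described for the cleaved intracellular domain of CD44, searched on both strands.
Acan: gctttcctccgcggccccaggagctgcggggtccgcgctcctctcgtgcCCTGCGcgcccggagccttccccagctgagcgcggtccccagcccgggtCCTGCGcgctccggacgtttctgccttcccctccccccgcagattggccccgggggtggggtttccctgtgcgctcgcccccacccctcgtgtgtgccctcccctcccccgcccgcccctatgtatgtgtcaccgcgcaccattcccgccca
Hapln1: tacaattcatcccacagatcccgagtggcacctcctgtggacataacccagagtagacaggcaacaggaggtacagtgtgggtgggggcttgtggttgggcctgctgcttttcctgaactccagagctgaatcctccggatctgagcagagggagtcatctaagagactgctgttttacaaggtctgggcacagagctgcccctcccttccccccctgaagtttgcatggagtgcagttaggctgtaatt
The *Acan* window held the letters at 2 places and the *Hapln1* window at none. The 8 cartilage genes with a promoter entry have 13 windows, 6 of them of *Sox6*. Of these, 2 held the letters, those of *Acan* and *Ihh*, against 14.1% of 32851 windows of this length. The SOX motifs ACAAAG and ACAATG, also searched on both strands, were in 6 of the 13 windows, all of *Sox5* or *Sox6*, and in 25.2% of all windows. The AP-1 motif TGAGTCA was in 0 of the 13 windows and in 4.46% of all windows. A match of 6 or 7 letters describes the sequence and is no evidence of binding.

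Of the matrilins, which link collagen fibrils to other matrix, *Matn1* and *Matn3* were low. *Matn1* (chr4:130944385-130955475, plus strand), which is nearly restricted to cartilage, had 4 counts in No279 and 0 counts in each other tumor, where the floor of 3 counts allows a level of up to 0.104 to 0.252 CPM. *Matn3* (chr12:8947929-8972028, plus strand) had a CPM of 0 in No244, 1.95 in No316 and 2.14 in No368, against 2.34 in No203, 3.99 in No279 and 0.419 in No364. It was highest in No279 and the genotypes overlapped, with a log2 fold change of 0.71 ± 1.34 (SE) and an edgeR adjusted p of 0.859. Without No279 the log2 fold change was -0.0016. *Matn4*, a matrilin also found outside cartilage, was likewise highest in No279, at 169 CPM, and lay between 5.15 and 98.9 CPM elsewhere.

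*Comp* (chr8:70373558-70382066, plus strand), the cartilage oligomeric matrix protein of cartilage and tendon, had its lowest level in No364. Its CPM came to 17.6 in No244, 3.58 in No316 and 4.07 in No368, against 18.1 in No203, 9.38 in No279 and 0.471 in No364. No203 and No244 were the highest and belong to different genotypes. This order depends on the scaling, since the TMM factor of No244 was 0.565, and with library size alone *Comp* was at 9.96 CPM in No244, below 11.6 CPM in No279. The log2 fold change was 0.15 ± 1.19 (SE), with an edgeR adjusted p of 0.968, and its sign changed with the setting (-0.19 with No316 and No368 summed, -0.79 without No203, 1.28 without No244). The 4 tendon markers summed to 130 CPM in No203, 323 in No279, 24.9 in No364 and between 72.7 and 78.7 in the *Cd44*+/+ tumors. Of the sum in No279, 296 CPM was *Thbs4*. *Scx*, another of the 4, was at 26.5 CPM in No279, 30.8 in No203, 2.56 in No364 and from 17.3 to 30.2 in the *Cd44*+/+ tumors. *Tnmd*, the defining tendon marker, had 10 counts in No203, 2 in No244, 1 in No279 and 0 in the other 3 tumors, so it passed the floor of 3 counts in No203 alone. *Mkx*, the last of the 4, was highest in No316 and No368 with 5 and 4.11 CPM, where *Comp* was low. It had 2.1 CPM in No203, 0.924 in No279, 0.68 in No364 and 0.336 in No244. The part of tendon in the *Comp* levels was not tested.

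*Chad* (chr11:94565047-94569127, plus strand), which encodes chondroadherin, a leucine-rich matrix protein that binds collagen and cells, was too low to test. It had 0, 5 and 1 counts in No244, No316 and No368, and 23, 1 and 10 counts in No203, No279 and No364. No203 with 0.912 CPM and No364 with 0.523 CPM were the highest, and No279 with 0.0330 CPM was under the floor. DESeq2 gave a log2 fold change of 2.61 with an adjusted p of 0.479. *Acsf2* overlaps it on the opposite strand.

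**Figure D3:**
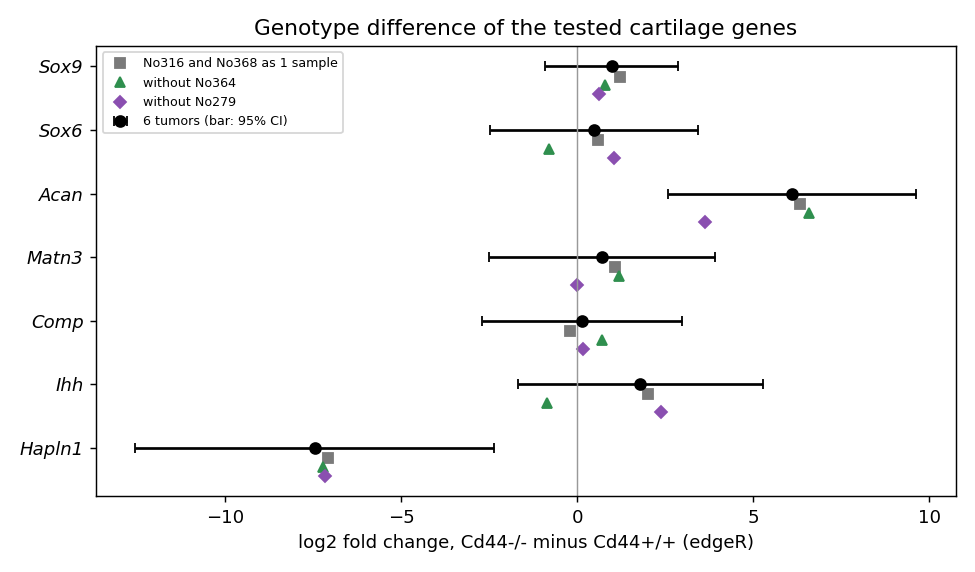
Log2 fold change (Cd44-/- minus Cd44+/+, edgeR) of the 7 tested cartilage genes, with black points and 95% confidence intervals for all 6 tumors, gray squares for No316 and No368 taken as 1 sample, green triangles without No364 and violet diamonds without No279. The intervals of Acan (2.59 to 9.64) and Hapln1 (-12.55 to -2.37) leave out 0, and Sox6 and Ihh change sign without No364. All intervals treat No316 and No368 as separate tumors.

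The collagens of cartilage did not accompany *Acan*. *Col2a1*, the type II collagen that makes up most cartilage fibrils, had a CPM of 38.3 in No244, 0.104 in No316 and 0.294 in No368, against 21.0 in No203, 0.627 in No279 and 0 in No364. No279, with 153 CPM of *Acan*, thus had 19 counts of *Col2a1*, and No203 was the only tumor with both genes above 10 CPM. *Col11a2* ranged from 1140 to 1790 CPM in the *Cd44*+/+ tumors and had 750, 2.91 and 1.47 CPM in No203, No279 and No364. Every *Cd44*-/- tumor thus lay below every *Cd44*+/+ tumor, which 9.57% of all genes did, and the edgeR adjusted p was 0.657. Its lowest levels were in No279 and No364, as for *Sp7*, but *Sp7* was highest in No203 with 333 CPM. *Col11a1* lay between 13.3 and 386 CPM. *Col9a1*, *Col9a2* and *Col10a1*, the last a marker of hypertrophic chondrocytes, did not exceed 0.203, 0.0769 and 0.241 CPM per kb in any tumor. Of the 8 collagens 6 were tested, 0 had an unadjusted p under 0.05, and their median log2 fold change was -0.08.

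Other cartilage genes gave no shared picture. Of 12 further matrix genes 4 were tested, 0 had an unadjusted p under 0.05, and the median log2 fold change was 0.83. *Prg4*, the lubricin of the joint surface, which the liver also expresses, was highest in No364 with 82.7 CPM and lay between 24.2 and 38.9 CPM elsewhere. *Cnmd*, the cartilage protein chondromodulin, had 122 counts in No364 and at most 1 in each other tumor, and *Ucma*, a marker of cartilage, had 0 in every tumor. All 8 genes of chondroitin sulfate synthesis, the machinery that dresses aggrecan with sugar chains, were tested, with 0 at an unadjusted p under 0.05 and a median log2 fold change of 0.04. *Chpf*, a chondroitin polymerizing factor, was highest in No279 with 207 CPM and lowest in No364 with 22.9, while *Chsy1*, a chondroitin synthase, was highest in No203 with 114 CPM. Of 9 chondrocyte regulators 6 were tested, with 1 higher (*Arid5b*) and 0 lower at an unadjusted p under 0.05 and a median of -0.66. *Arid5b*, a coactivator of SOX9, had 0.672 CPM in No244, 2.43 in No316 and 2.77 in No368, against 1.67, 16.4 and 15.3 CPM in No203, No279 and No364. It was high in the same 2 tumors as *Sox9*, with a log2 fold change of 2.49 ± 0.98 (SE), an unadjusted p of 0.0393 and an edgeR adjusted p of 0.452. *Mef2c*, which drives chondrocyte hypertrophy but also acts in bone and muscle, had 12.4 CPM in No279 and 5.44 CPM in No364 and lay between 202 and 278 CPM elsewhere. *Wwp2*, a gene that SOX9 turns on, lay between 31.1 and 153 CPM.

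**Figure D4:**
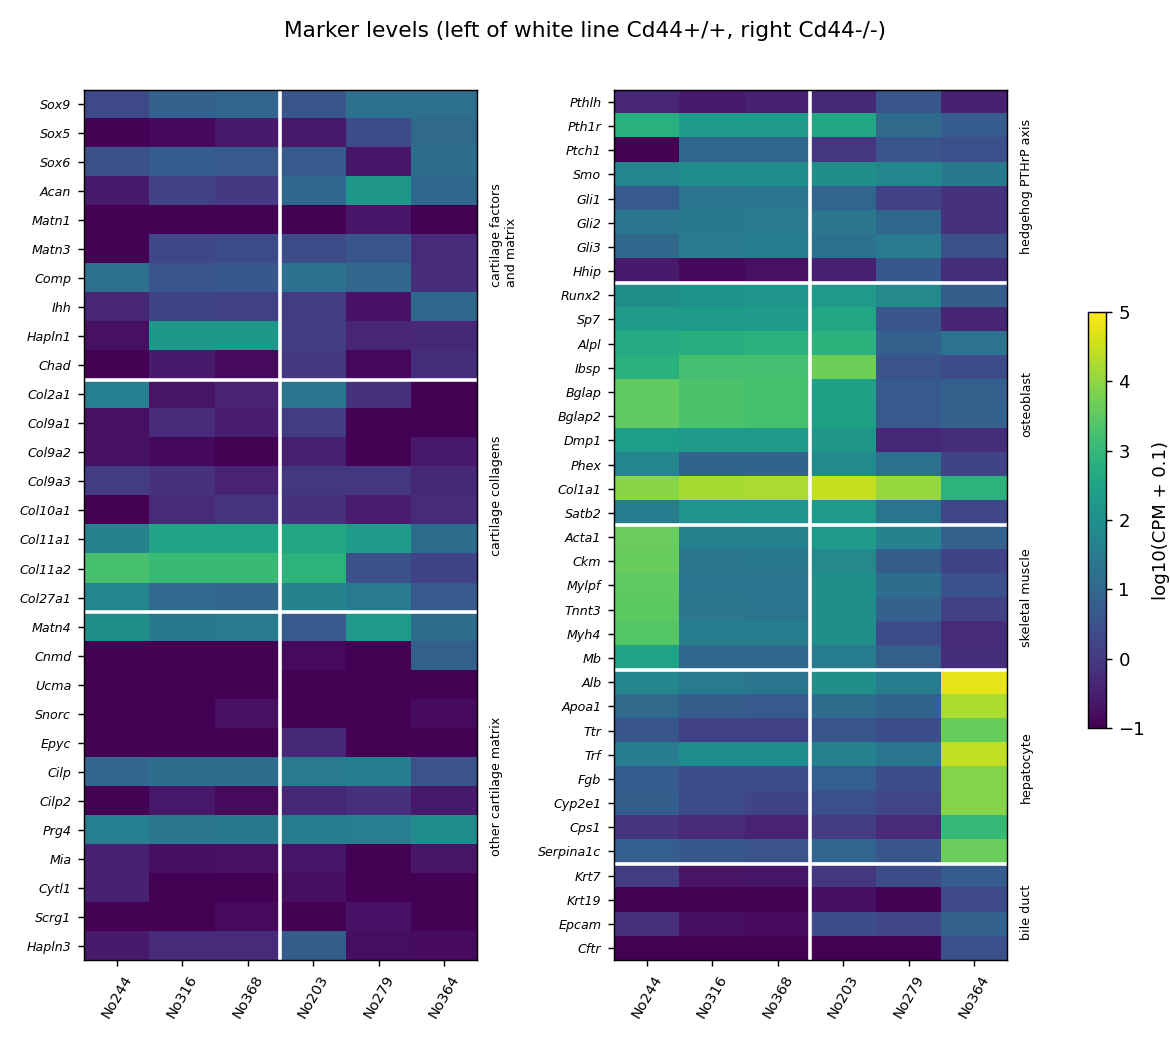
Levels of cartilage genes (left) and of hedgehog, osteoblast, muscle, hepatocyte and bile duct genes (right) in each tumor, as log10(CPM + 0.1), with genotypes split by the vertical white line. No279 and No364 are dark in Sp7, Ibsp and Dmp1, No364 is bright in the hepatocyte genes and No244 in the muscle genes, and no column is bright throughout the cartilage genes.

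The genes whose log2 CPM tracked *Acan* most closely over the 6 tumors were *Gm13034*, *Gm12020*, *Kdm4a*, *Nkain1* and *Zfp655*, with Pearson's r from 0.9874 to 0.9923. For *Sox9* they were *Vps13a*, *Taok3*, *Gm14325*, *Eif4ebp2* and *Gm18953*, with r from 0.9954 to 0.9979. Over the 16832 genes compared, 75 exceeded an r of 0.95 with *Acan* and 251 with *Sox9*. These are descriptions over 6 libraries that share their composition differences, among them the liver transcripts of No364 and the muscle transcripts of No244. The tested cartilage factors and matrix genes of the group itself were left out of the comparison beforehand. None of these closest genes is on the other cartilage lists.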

How the data were processed

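Stranded mRNA libraries of 6 primary osteosarcomas were sequenced in single-end mode. Alignment to GRCm38 used HISAT2 2.0.2, and reads were counted per Ensembl gene with featureCounts of Subread 2.0.0, after base calls were extracted with bcl2fastq 1.8.4, per the study's methods and the submitters' processing notes. The authors deposited these values as raw counts without normalization, for 39179 genes. How the counting treated strand and reads matching several genes is not given in the sources used here. Genotypes came from the labels. Symbols and coordinates are from GENCODE M21 (GRCm38), another release than the one counted on, and 37607 identifiers had a symbol.

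Counts were scaled by TMM and compared with edgeR 4.0.16 in R 4.3.3 (filterByExpr defaults, quasi-likelihood F test, Benjamini-Hochberg over all 16839 genes tested, threshold 0.05), with genotype as the only factor and all 6 tumors. The common biological coefficient of variation was 0.708. The SE is the ratio of a log2 fold change to the root of its F statistic. Counts over pairs of tumors were compared with the 95% binomial range, for genes whose counts summed to 20 or more. Levels between genes were compared per kb of merged exons. Correlations used log2 CPM with a prior count of 2. Floors and the 95% binomial range cover counting error only. The SE, the confidence intervals of log2 fold changes and the p-values rest on the spread between these tumors. They treat No316 and No368 as separate tumors unless the pair is said to be summed, so the close likeness of the pair enters that spread.

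The alternatives were DESeq2 size factors, library size alone, removal of mitochondrial genes, other low-count filters, limma-voom (limma 3.58.1), a hepatocyte score as covariate, DESeq2 1.42.0 (Wald test), No316 and No368 summed, and leaving out each tumor. Chosen after seeing the data were leaving out both No279 and No364, and DESeq2 with the pair summed, with the Cook's distance filter off, without No364 and without No279. Members and lists were chosen with earlier results of these data known. Named were all 10 genes, the *Cd44* check, and from each other cartilage list the 2 genes with the highest mean level per kb and any with an unadjusted p under 0.05, and the 5 genes most like *Acan* or *Sox9* in pattern. The genes *Col2a1*, *Col9a1*, *Col9a2*, *Col10a1*, *Gli1*, *Ptch1*, *Hhip*, *Pthlh*, *Hapln3*, *Cnmd* and *Ucma* and the single marker genes were named after their values were seen. The fits were tested on simulated counts. Promoter windows were read from a RefSeq table, which matched 8 of the 10 genes. The results of 2 listed genes, the count at an unadjusted p and the median of the hedgehog list, and the sum over the bile duct list are not reported here.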

Additional observations from a re-analysis of the deposited data

How the results depend on the processing

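edgeR called 0 genes and 0 cartilage genes under each of its settings and limma-voom did too. DESeq2 called 419 of the 23842 genes it gave an unadjusted p (2 of 9 cartilage genes). With No316 and No368 summed it called 146 of 24700 (2 of 10). With its Cook's distance filter off it called 1195 of 25317 (3 of 10). Leaving out No364 gave 432 of 24482 (2 of 10), and leaving out No279 gave 1196 of 24695 (3 of 9). The 1810 genes at an unadjusted p under 0.05 became 1197 with library size alone, 761 with the pair summed, 3646 by DESeq2 with the filter off and 3201 by DESeq2 without No279, and ranged from 763 (without No316) to 3085 (without No203) when 1 tumor was left out (784 without No368). The 2 cartilage genes at that level became 0 where every tumor needed at least 10 counts (1 cartilage gene was tested), 1 with limma-voom, 1 without No279 and No364 and 5 by DESeq2 without No279, and stayed at 1.5 times or less from 2 elsewhere. *Acan* and *Hapln1* kept their direction under every alternative that tested them. *Sox9* turned to -0.78 without No279 and No364. *Sox6* turned to -1.23 with limma-voom, -1.04 with the hepatocyte covariate and -0.81 by DESeq2 without No364, and ranged from -0.80 to 1.06 when 1 tumor was left out. *Matn3* ranged from -0.0016 to 1.20 in that way and was -0.0044 by DESeq2 without No279. *Comp* turned to -0.20 with limma-voom, -0.19 with the pair summed and -0.21 by DESeq2 with the pair summed, and ranged from -0.79 to 1.28. *Ihh* turned to -0.05 with limma-voom, -1.21 with the covariate, -0.01 without No279 and No364 and -0.89 by DESeq2 without No364, and ranged from -0.87 to 2.37. Beyond what the left-out tumors show, the cause was not tested. Library size alone moved 2 of 60 levels, *Sox6* in No316 (7.12 CPM) and No368 (6.58 CPM), by more than the SD between tumors of the genotype. Removal of mitochondrial genes moved 0 of 60. As that SD was often near or above the mean, these counts do not show that levels were stable. *Comp* in No244 went from 17.6 to 9.96 CPM with library size alone and did not count as moved, the SD being 9.77 CPM. With its default filter on all 6 tumors, edgeR left out *Matn1*, *Chad* and *Sox5*. Without No279 and No364 the *Cd44*-/- group is No203 alone, which is assumed to vary like the other group. No paired analysis was possible because the mouse numbers are not shared between genotypes.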
